A study of Mus musculus with 5 samples.

Results

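The clustered histone genes encode the linker histone H1 and the core histones H2A, H2B, H3 and H4, and lie together in the Hist1, Hist2, Hist3 and Hist4 clusters of the mouse genome. They were taken as every gene of the deposited table whose symbol begins with Hist, a cluster number from 1 to 4 and the letter h, which gave 67 of 23951 genes. By class, these were 6 H1, 18 H2A, 18 H2B, 12 H3 and 13 H4 genes. In mm9 coordinates, 53 lie on chromosome 13 (Hist1), 10 on chromosome 3 (Hist2), 3 on chromosome 11 (Hist3) and 1 on chromosome 6 (Hist4). The 67 entries cover 63 distinct loci, because 4 loci are listed for more than 1 entry.

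RNA was sequenced from pancreatic beta cells of transgenic mice. In the p16 group, 3 samples came from Ins-rtTA/tet-GFP/tet-p16ink4a mice, whose insulin promoter drives a tetracycline-responsive activator that switches on p16INK4a and green fluorescent protein. In the GFP group, 2 samples came from Ins-rtTA/tet-GFP control mice, which switch on the fluorescent protein alone. All mice received tetracyclin for 10 days, so the controls share the activator, the fluorescent protein and the drug. In both groups the islets were dissociated and the cells sorted for fluorescence. The age, sex and strain of the mice were not given in the sources used here, and whether each sample was 1 mouse is not stated per sample, so the spread behind the p-values may in part be technical.

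The values are FPKM, a level of fragments scaled by transcript length and library size, as computed by the authors. The table gives 1 FPKM value per group and gene, so no SD, no replicate range and no depth per library can be given. Whether a pair of group values differed is taken from the q-value of the authors' own test, which is adjusted over all 13264 genes they tested, with a q-value below 0.05 as the call.

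Most clustered histone genes are transcribed when DNA is copied, in S phase. Their mRNAs usually end in a short stem-loop that is bound by the stem-loop binding protein SLBP, in place of a poly(A) tail. Core histones form the spool around which DNA is wound, and H1 binds the DNA between spools. Some histone genes outside the clusters, such as H3f3a and H3f3b, are transcribed throughout the cell cycle and supply replacement histones in cells that no longer divide. Some clustered genes are also known to give polyadenylated transcripts in differentiated cells. p16INK4a inhibits the cyclin D kinases and so blocks entry into S phase.

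Cdkn2a, the gene for p16INK4a, stood at 34.6 FPKM in p16 cells and 0.657 FPKM in GFP cells, 52.7-fold higher (q = 0.00245 in the authors' deposited table). Of 9 beta cell markers, 6 were listed between 119.6 and 2327 FPKM in p16 cells and between 67.6 and 3012 FPKM in GFP cells. The other 3, Ins1, Ins2 and Iapp, are listed at 0 with a status for too many fragments. Other islet hormones were also abundant, with Sst at 2678 FPKM in p16 cells and 1244 FPKM in GFP cells and Gcg at 2263 and 1642 FPKM. The 6 endothelial markers summed to 3.58 FPKM in p16 cells and 3.02 FPKM in GFP cells, and the 8 immune markers listed to 9.41 and 9.77 FPKM, with Cd3e at 0 in both groups. The 6 stellate and fibroblast markers summed to 2.58 FPKM in p16 cells and 0.406 FPKM in GFP cells. Summed acinar markers were at 16.2 FPKM in p16 cells and 15.4 FPKM in GFP cells. The duct markers went both ways, with Spp1 at 15.1 FPKM in p16 cells and 3.85 FPKM in GFP cells and Krt19 at 1.79 and 5.75 FPKM. The part of other cell types in the histone values was not tested.

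Many stem-loops could be read from the transcripts of GENCODE release M21. They are shown because the loop is the feature that sets these mRNAs apart. The members chosen are among the most abundant of their class that hold one, or carry an unusual loop. All 67 genes had a transcript there, but only 51 of 67 (76.1%) had at least 30 bases after the stop codon, so a comparison of genes with and without the loop is void. Of those 51, 44 held a match to the fixed pattern of letters searched for and 7 did not. An annotation can also end before the loop, with 37 bases after the stop codon in Hist2h3b, for example. A gene without a match may thus still have a loop. Capitals mark the 16 letters of the stem and loop, written as DNA, with 5 bases on either side.
Hist1h1c stem-loop: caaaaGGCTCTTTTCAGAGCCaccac
Hist1h1e stem-loop: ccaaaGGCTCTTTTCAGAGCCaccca
Hist3h2a stem-loop: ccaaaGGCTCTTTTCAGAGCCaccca
Hist3h2ba stem-loop: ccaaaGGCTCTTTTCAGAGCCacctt
Hist1h3e stem-loop: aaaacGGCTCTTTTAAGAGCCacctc
Hist1h4i stem-loop: ttaaaGGCCCTTTTTAGGGCCaccac
Hist1h4h stem-loop: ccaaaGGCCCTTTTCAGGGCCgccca
Hist1h4a stem-loop: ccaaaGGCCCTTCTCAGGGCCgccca

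The letters were tallied only where at least 5 bases follow the loop. This left out Hist1h2ap and the joint entry for Hist1h4m and Hist1h4n. Among the rest, the same 16 letters, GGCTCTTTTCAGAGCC, stood in 25 genes and in members of H1, H2A, H2B and H3. The H4 genes carried a C-rich stem in place of it, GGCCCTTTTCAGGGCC in 6 genes and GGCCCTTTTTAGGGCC in 2, Hist1h4i and Hist2h4. A form with TTTA in place of TTTC in the loop, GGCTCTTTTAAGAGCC, stood in 6 genes, Hist1h3e among them. In 22 of the 44 genes the annotated transcript runs on for at least 100 bases after the loop, by 840 bases in Hist1h1c and 1643 bases in Hist3h2a. In the other 22 it ends sooner, as in Hist1h4h, 46 bases after the loop. The annotated transcripts of Hist1h2bc and Hist2h2be, a pair of H2B genes, hold no match to the loop pattern. Whether the libraries were selected for poly(A) tails was not given in the sources used here, and the part of this in the levels was not tested.

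None of the clustered histone genes was called as changed between p16 and GFP cells. The authors tested 43 of the 67, and 0 of the 43 had a q-value below 0.05 in the authors' deposited table, whose background over all 13264 tested genes was 5.42% (4.32% higher and 1.1% lower in p16). The q-values of the 43 ran from 0.169 to 0.996 in the authors' deposited table. At an unadjusted p-value below 0.05, 3 of the 43 (6.98%) passed in the authors' deposited table, against 17.2% of all tested genes, and all 3 had the higher FPKM in p16 cells. The background was 10.2% for higher and 7.01% for lower FPKM in p16 cells. These were Hist1h1e, Hist1h2af and Hist1h4d.

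FPKM was higher in p16 cells for 27 of the 43 tested genes (62.8%) and lower for 16 (37.2%), against 48.4% higher and 51.6% lower among all tested genes. That majority turned once the trend of the ratio on GC content and length was removed, with 22 of the 43 lower in p16 cells. After quantile normalization the median log2 ratio of the 43 stayed above 0, at 0.082. Of the 61 genes above 0 in either group, 31 were then lower in p16 cells, against 23 of 61 without quantile normalization. The median log2 ratio of p16 over GFP was 0.19 over the 43 and -0.02 over all tested genes. The ratios ran from -1.44 for Hist2h3b to 2.63 for Hist1h2ak, both below 1 FPKM in each group. Among the 33 genes with a mean of at least 1 FPKM, 23 had the higher value in p16 cells and 10 the lower one. Only Hist1h2af and Hist1h4d of these 33 had a ratio beyond 1 in either direction on the log2 scale. In bulk samples a difference in the number of transcribing cells and one in RNA per cell, in either direction, cannot be told apart.

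**Figure D1:**
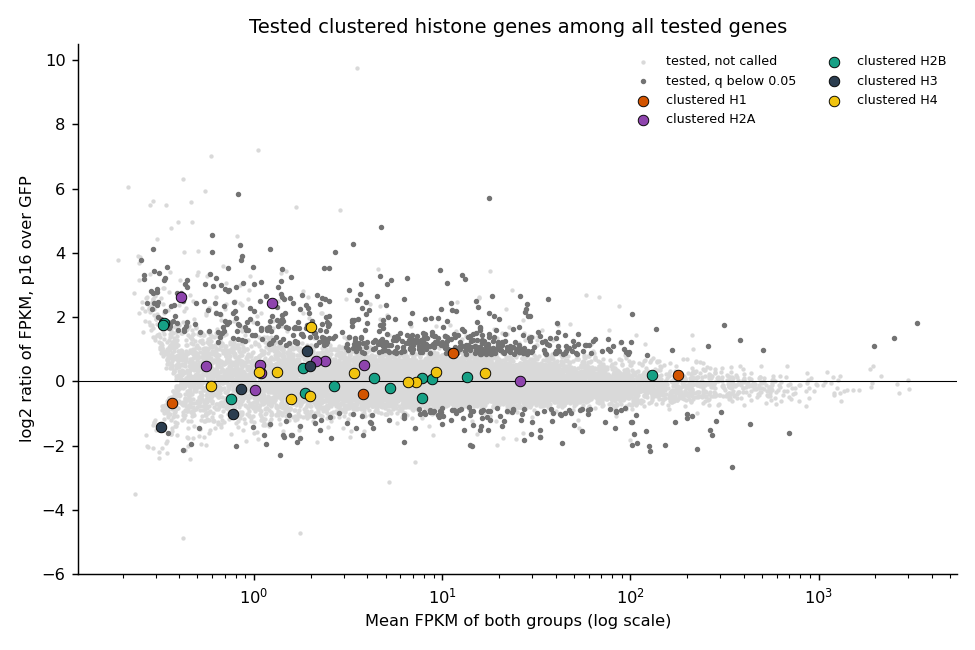
Log2 ratio of p16 over GFP FPKM (vertical axis) against the mean FPKM of the 2 groups (horizontal log axis) for the genes tested by the authors and above 0 in both groups, with the clustered histone genes as larger points coloured by class. The histone genes lie within the cloud of all genes, with a median log2 ratio of 0.19 against -0.02, and none of them was called.

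Over the tested genes, the log2 ratio moved with GC content. The median transcript GC content was 55.4% for the 43 tested histone genes and 49.7% for all tested genes. Across 12538 tested genes the log2 ratio had a Spearman correlation of 0.46 with GC content, a description over genes, which are not independent. With the trend of the ratio on GC content and length removed, the median log2 ratio of the histone genes was -0.02.

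The folds of the histone genes can be set beside the smallest fold that the authors called at a similar level. Below a mean of 1 FPKM that fold was 2.35, in either direction. Among the 408 tested genes with a mean between 100 and 200 FPKM, the smallest fold among the 17 that the authors called was 1.78, in either direction. Hist1h1c and Hist1h2bc lie in that range, with folds of 1.14 and 1.15. Among 5962 tested genes between 5 and 30 FPKM, the smallest fold called was 1.76, and Hist1h1e, with a fold of 1.84, was not called. Between 1 and 5 FPKM the smallest fold called was 1.83, and Hist1h2af was not called at 5.47-fold. Histone genes are short, and 39 of the 43 tested span under 1000 bases. Of 113 other tested genes as short, 4 (3.54%) were called. The smallest folds above are over genes of all lengths. Between 1 and 5 FPKM, 0 of the tested genes under 1000 bases were called, 20 of them clustered histone genes.

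The summed FPKM of the 67 genes was 509.8 in p16 cells and 448.3 in GFP cells, a ratio of 1.14. H1 and H2B made up most of it. H1 summed to 209.1 FPKM in p16 cells and 180.1 FPKM in GFP cells, and H2B to 195.1 and 177.1 FPKM. H4 summed to 55.5 FPKM in p16 cells and 48.6 FPKM in GFP cells. H2A summed to 43.0 FPKM in p16 cells and 36.9 FPKM in GFP cells, and H3, the lowest class, to 7.04 and 5.61 FPKM. Every class sum was thus higher in p16 cells, by 0.14 (H2B) to 0.33 (H3) on the log2 scale, but the H3 difference was -0.05 after quantile normalization and the H2B difference was -0.02 without Hist1h2bc. These sums have no error and no test, since 1 value per group is given.

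**Figure D2:**
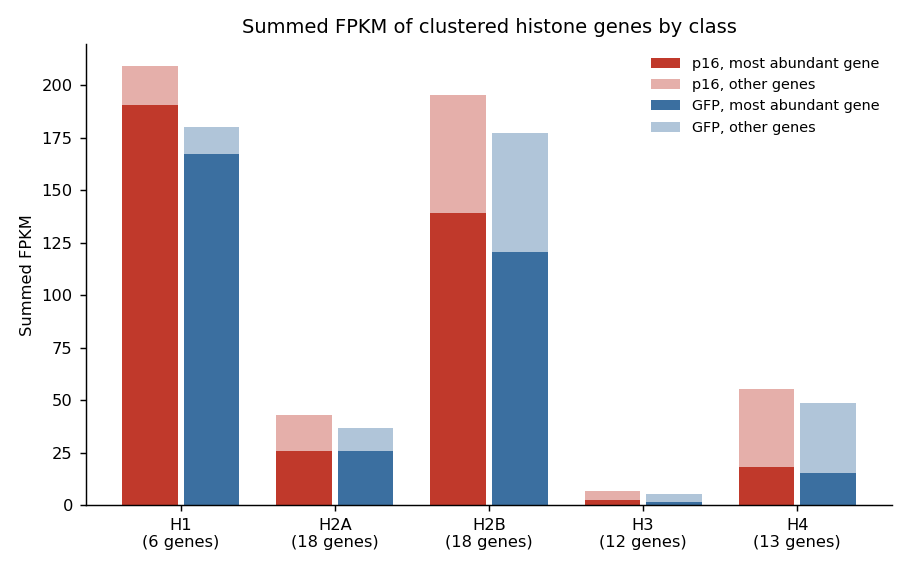
Summed FPKM of each histone class (vertical axis, starting at 0) in p16 cells and in GFP cells, with the share of the most abundant gene of the class in that group set apart within each bar. H1 and H2B stand highest, at 209.1 and 195.1 FPKM in p16 cells and 180.1 and 177.1 FPKM in GFP cells, and 1 gene supplies most of each.

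A pair of genes dominated the total. Hist1h1c, which encodes an H1 linker histone, and Hist1h2bc, which encodes an H2B, together supplied 64.7% of the summed FPKM in p16 cells and 64.2% in GFP cells. The other 65 genes summed to 180.0 FPKM in p16 cells and 160.6 FPKM in GFP cells. By cluster, Hist1 supplied 448.5 FPKM in p16 cells and 387.2 FPKM in GFP cells. Hist3 supplied 41.8 and 40.8 FPKM, Hist2 19.0 and 19.6 FPKM and the single Hist4 gene 0.561 and 0.624 FPKM. Within Hist1, the 31 genes of the block at the higher coordinates held 413.9 FPKM in p16 cells and 357.1 FPKM in GFP cells. The 22 genes of the block at the lower coordinates held 34.6 and 30.1 FPKM.

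Among the linker histones, Hist1h1c (chromosome 13, 23830676 to 23831400, mm9) stood at 190.5 FPKM in p16 cells and 167.1 FPKM in GFP cells, the highest level of any clustered histone gene (q = 0.808 in the authors' deposited table). It supplied 91.1% of the H1 sum in p16 cells and 92.8% in GFP cells. Hist1h1e (chromosome 13, 23713646 to 23714427, mm9) stood at 14.9 FPKM in p16 cells and 8.08 FPKM in GFP cells. Its fold of 1.84 was the largest among the 13 clustered genes with a mean of at least 5 FPKM, and it had the lowest p-value of the 43 (p = 0.0186, q = 0.169 in the authors' deposited table). Hist1h1d stood at 3.28 FPKM in p16 cells and 4.30 FPKM in GFP cells, the other direction. Hist1h1a and Hist1h1b were below 0.5 FPKM in both groups, as was Hist1h1t, the H1 gene of the testis, at 0.0185 FPKM in p16 cells and 0.0576 FPKM in GFP cells. Of the 4 tested H1 genes, 2 had the higher value in p16 cells and 2 the lower.

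The promoters of Hist1h1c and Hist1h1e are shown because these H1 genes had the highest level and the lowest p-value of the members. They come from RefSeq on GRCm38.p6, which is not the build of the table, and run from 250 bases before the start to 50 bases after it. Capitals mark the CCAAT box, the TATA box in its wider form TATANA and an H1 promoter box, AAACACA, on either strand. Matches that overlap run together.
Hist1h1c promoter, chr13:23738557-23738856, plus strand: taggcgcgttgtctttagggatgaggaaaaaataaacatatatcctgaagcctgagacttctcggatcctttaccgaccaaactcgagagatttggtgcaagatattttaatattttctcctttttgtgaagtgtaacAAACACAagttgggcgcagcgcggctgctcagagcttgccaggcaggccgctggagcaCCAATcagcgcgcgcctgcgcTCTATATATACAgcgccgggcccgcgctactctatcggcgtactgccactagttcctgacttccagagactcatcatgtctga
Hist1h1e promoter, chr13:23622509-23622808, minus strand: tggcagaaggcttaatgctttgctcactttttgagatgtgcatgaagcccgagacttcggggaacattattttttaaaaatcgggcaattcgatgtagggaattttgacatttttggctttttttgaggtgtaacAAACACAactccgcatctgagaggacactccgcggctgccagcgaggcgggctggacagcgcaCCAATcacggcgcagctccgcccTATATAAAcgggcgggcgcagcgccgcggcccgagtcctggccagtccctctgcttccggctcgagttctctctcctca

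Both H1 promoters hold AAACACA, then CCAAT, then a run of TATA letters close to the start. AAACACA and TATANA were added to the search after the first of these promoters had been read. AAACACA stood in 5 of 6 H1 promoters, in 2 of 17 H2A, in 2 of 15 H2B and in 0 of 10 H3 and 0 of 12 H4 promoters, against 7.18% of all 32851 promoters of that length. These matches are descriptions of the letters only.

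Among the H2A genes, Hist3h2a (chromosome 11, 58768187 to 58768694, mm9) stood at 25.9 FPKM in p16 cells and 25.8 FPKM in GFP cells, with the highest q-value of the 43 (q = 0.996 in the authors' deposited table). It supplied 60.3% of the H2A sum in p16 cells and 69.9% in GFP cells. The remaining H2A genes were each below 5 FPKM. Hist2h2ac stood at 4.51 FPKM in p16 cells and 3.19 FPKM in GFP cells. Hist1h2ae stood at 2.90 and 1.86 FPKM in p16 and GFP cells, and Hist1h2ac at 2.59 and 1.66 FPKM. All 3 lay higher in p16 cells, by 0.50 to 0.65 on the log2 scale.

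Hist1h2af had the widest ratio of the genes with a mean of at least 1 FPKM, at 2.11 FPKM in p16 cells and 0.386 FPKM in GFP cells (p = 0.0328, q = 0.234 in the authors' deposited table). Its log2 ratio was 2.45, and 1.17 on the log2(FPKM + 1) scale. Hist1h2ai stood at 1.19 FPKM in p16 cells and 0.997 FPKM in GFP cells, and Hist2h2ab at 1.27 and 0.887 FPKM. Hist1h2ad, at 0.913 FPKM in p16 cells and 1.11 FPKM in GFP cells, was the single tested H2A gene with the lower value in p16 cells. The other 9 of the 10 tested H2A genes had the higher value in p16 cells, and their q-values reached down to 0.234 in the authors' deposited table.

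Among the H2B genes, Hist1h2bc (chromosome 13, 23776068 to 23784349, mm9) stood at 139.2 FPKM in p16 cells and 120.6 FPKM in GFP cells (q = 0.779 in the authors' deposited table). It supplied 71.3% of the H2B sum in p16 cells and 68.1% in GFP cells. Hist3h2ba stood at 14.2 FPKM in p16 cells and 12.97 FPKM in GFP cells. Hist1h2ba, which encodes the H2B of the testis, stood at 9.07 FPKM in p16 cells and 8.67 FPKM in GFP cells (q = 0.971 in the authors' deposited table). The testis H2A gene next to it, Hist1h2aa, was listed at 0.139 FPKM in p16 cells and 0.204 FPKM in GFP cells and was not tested.

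Hist1h2bg stood at 8.16 FPKM in p16 cells and 7.52 FPKM in GFP cells. Hist2h2be (chromosome 3, 96025044 to 96027661, mm9) stood at 6.39 FPKM in p16 cells and 9.21 FPKM in GFP cells. Its log2 ratio of -0.53 was the lowest among the 13 genes with a mean of at least 5 FPKM (p = 0.0788, q = 0.364 in the authors' deposited table). Hist1h2be stood at 4.93 FPKM in p16 cells and 5.67 FPKM in GFP cells, Hist2h2bb at 4.52 and 4.20 FPKM and Hist1h2bh at 2.51 and 2.78 FPKM. Hist1h2bb stood at 2.09 FPKM in p16 cells and 1.57 FPKM in GFP cells, and Hist3h2bb-ps, a pseudogene, at 1.65 and 2.10 FPKM. The tested H2B genes were thus split, with 8 of 13 higher in p16 cells and a median log2 ratio of 0.11.

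The H3 genes of the clusters were scarce. Hist1h3d, the highest of them in p16 cells, stood at 2.50 FPKM in p16 cells and 1.31 FPKM in GFP cells. Hist1h3e, the highest in GFP cells, stood at 2.32 FPKM in p16 cells and 1.66 FPKM in GFP cells. The other 10 H3 genes had a mean below 1 FPKM. Of the 5 tested, 2 were higher and 3 lower in p16 cells, with a median log2 ratio of -0.24, while the log2 ratio of the class sum was 0.33. The q-values of the 5 were between 0.524 and 0.943 in the authors' deposited table.

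Among the H4 genes, Hist1h4i (chromosome 13, 22132829 to 22133231, mm9) stood at 18.4 FPKM in p16 cells and 15.3 FPKM in GFP cells. Hist1h4h stood at 10.1 and 8.28 FPKM in p16 and GFP cells. Hist1h4c stood at 7.22 and 7.31 FPKM, and Hist1h4k at 6.55 and 6.65 FPKM. The class was thus spread over several genes, with Hist1h4i at 33.1% of its sum in p16 cells and 31.5% in GFP cells. Hist1h4d (chromosome 13, 23673471 to 23673838, mm9) stood at 3.07 FPKM in p16 cells and 0.945 FPKM in GFP cells, a fold of 3.24 (p = 0.0468, q = 0.282 in the authors' deposited table). Hist1h4j stood at 3.67 FPKM in p16 cells and 3.09 FPKM in GFP cells.

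The other H4 genes with a mean of at least 1 FPKM went both ways. Hist1h4a stood at 1.67 FPKM in p16 cells and 2.30 FPKM in GFP cells, and Hist1h4f at 1.27 and 1.87 FPKM. Hist2h4 stood at 1.46 FPKM in p16 cells and 1.19 FPKM in GFP cells, and the joint entry for Hist1h4m and Hist1h4n at 1.17 and 0.953 FPKM. Of the 11 tested H4 genes, 6 were higher and 5 lower in p16 cells, with a median log2 ratio of 0.25.

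**Figure D3:**
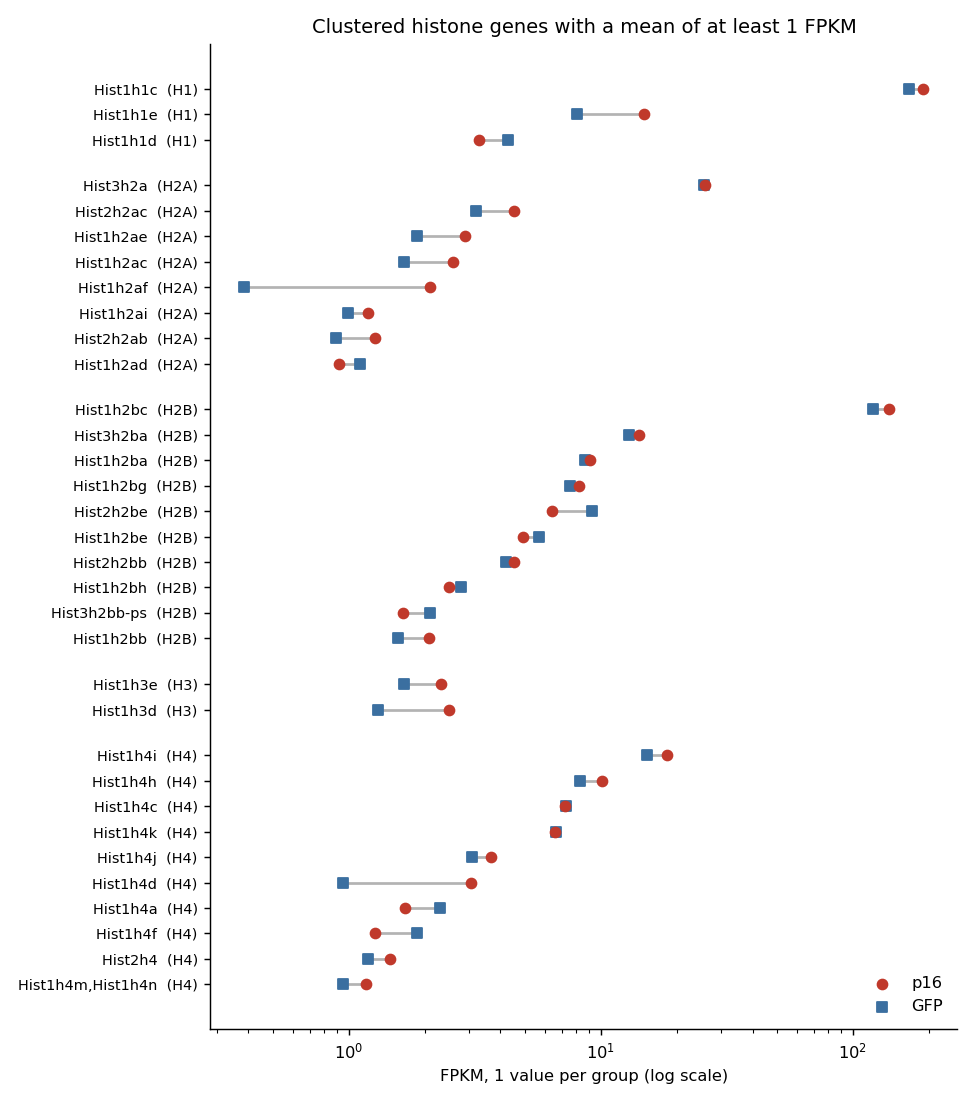
FPKM of the 33 clustered histone genes with a mean of at least 1 FPKM (log axis), p16 and GFP values side by side for each gene, by class. Most pairs of points nearly coincide, and the widest gaps are those of Hist1h2af (2.11 FPKM in p16 cells, 0.386 in GFP cells) and Hist1h4d (3.07 and 0.945).

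The remaining 34 genes had a mean below 1 FPKM. Of these, 10 were tested, 4 higher and 6 lower in p16 cells, and 5 of the 10 had a log2 ratio beyond 1 in either direction. The 24 that were not tested reached at most 0.423 FPKM in either group. Among those 24, 6 were listed at 0 in both groups, 7 at 0 in GFP cells alone and 2, Hist1h2an and Hist1h3b, at 0 in p16 cells alone.

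Histone genes of a class are near copies of each other, which limits what a single entry can show. For each gene, the coding sequence was cut into all 50-base stretches. The share also present anywhere in an annotated transcript of another clustered histone gene was counted. For a joint entry, the first symbol gave the sequence and its partner counted as another gene. The share of a joint entry thus includes copies within the entry. The median share was 10.9% for H1, 83.9% for H2A, 72.2% for H2B, 84.7% for H3 and 70.3% for H4. In 11 genes every stretch was shared. All 6 genes listed at 0 in both groups were among these 11, namely Hist1h2ag, Hist1h2ap, Hist1h4n, Hist2h3c2 and the joint entries of Hist1h2ao with Hist1h2ap and of Hist2h3c1 with Hist2h3c2. How the authors assigned reads that match several genes was not given in the sources used here, so a level within H2A, H2B, H3 or H4 is uncertain. The level of Hist1h1c is less exposed, with 21.9% of its stretches shared, while that of Hist1h2bc shares 97.6% of its coding stretches.

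Many H2A and H2B genes lie back to back, on opposite strands, with a short promoter region between them. By the mm9 coordinates, with strands from the GENCODE annotation, 11 such pairs have a gap of 172 to 305 bases. This is below the limit of 500 used to define them. Levels within several pairs were far from equal. Hist1h2bc was 53.7 times as high as its partner Hist1h2ac in p16 cells and 72.8 times in GFP cells, over a gap of 239 bases. Hist1h2ba, at 9.07 FPKM in p16 cells and 8.67 FPKM in GFP cells, stood beside Hist1h2aa, which was below 0.5 FPKM in both groups and too low for a ratio. In the Hist3 pair the H2A gene was the higher one, and Hist3h2a exceeded Hist3h2bb-ps by 15.8 times in p16 cells and 12.3 times in GFP cells. Hist2h2be was 1.42 times as high as Hist2h2ac in p16 cells and 2.89 times in GFP cells, and Hist1h2bg was 2.82 and 4.03 times as high as Hist1h2ae. In the other 6 pairs the highest level was 1.19 FPKM, for Hist1h2ai in p16 cells. These ratios rest on group values and were not tested.

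**Figure D4:**
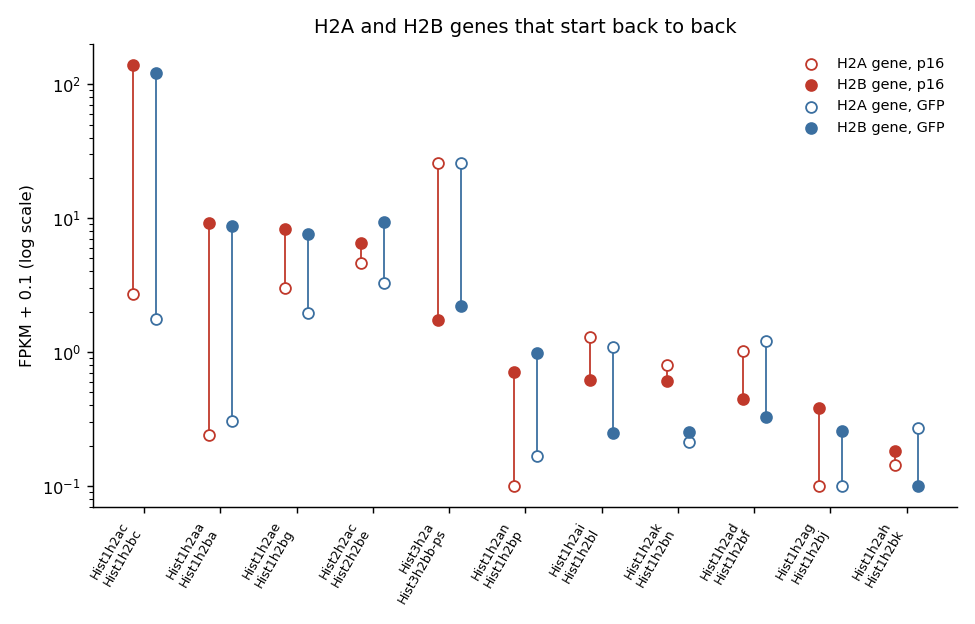
FPKM + 0.1 (log axis) of the H2A gene (open points) and the H2B gene (filled points) of each back-to-back pair in p16 and in GFP cells. In the first pair the partners differ far more than the groups do, with Hist1h2ac and Hist1h2bc at 2.59 and 139.2 FPKM in p16 cells and 1.66 and 120.6 FPKM in GFP cells.

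The promoter regions of 3 such pairs are shown because their partners differ most in level. The window of Hist1h2ac is longer upstream than the gap to Hist1h2bc, which has no entry of its own in the promoter table. Capitals mark the octamer ATTTGCAT, CCAAT and TATANA on either strand, so the octamer also appears as its reverse complement.
Hist1h2ac promoter, chr13:23683910-23684209, minus strand: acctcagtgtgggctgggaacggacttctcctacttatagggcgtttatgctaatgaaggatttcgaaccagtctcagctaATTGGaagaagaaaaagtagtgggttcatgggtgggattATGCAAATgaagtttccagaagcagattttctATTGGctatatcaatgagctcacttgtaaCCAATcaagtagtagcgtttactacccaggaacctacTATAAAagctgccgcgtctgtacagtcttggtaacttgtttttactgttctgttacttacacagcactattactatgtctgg
Hist3h2a promoter, chr11:58954435-58954734, plus strand: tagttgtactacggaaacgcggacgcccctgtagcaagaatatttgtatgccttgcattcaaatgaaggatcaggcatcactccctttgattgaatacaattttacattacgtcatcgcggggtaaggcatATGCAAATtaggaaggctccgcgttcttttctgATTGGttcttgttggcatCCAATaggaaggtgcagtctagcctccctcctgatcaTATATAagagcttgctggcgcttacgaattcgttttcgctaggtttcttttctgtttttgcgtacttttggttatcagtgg
Hist1h2ba promoter, chr13:23934107-23934406, minus strand: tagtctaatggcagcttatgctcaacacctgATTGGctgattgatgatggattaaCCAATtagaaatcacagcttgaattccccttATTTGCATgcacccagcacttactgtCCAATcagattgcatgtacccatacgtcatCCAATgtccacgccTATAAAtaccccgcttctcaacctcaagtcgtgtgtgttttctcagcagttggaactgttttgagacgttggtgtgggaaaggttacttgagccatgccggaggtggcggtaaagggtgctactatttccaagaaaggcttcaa

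All 3 windows hold the octamer, which binds the POU factor Oct-1, the product of Pou2f1. Promoters were found for 60 of the clustered genes. The octamer stood in 7 of 15 H2B and 7 of 17 H2A promoters and in none of the 6 H1, 10 H3 and 12 H4 promoters, against 1.74% of all 32851 promoters. Windows of back-to-back partners overlap, so a single octamer can count for both genes. CCAAT stood in every H1, H2A, H2B and H3 promoter and in 3 of 12 H4 promoters, against 37.4% of all promoters. TATAAA stood in 35 of the 60 (58.3%) against 13.6%, and the wider TATANA, which includes it, in 48 of the 60 against 24.7%. The 7 H2B genes with an octamer had a median of 4.52 FPKM in p16 cells and 4.20 FPKM in GFP cells. The 8 without one had medians of 0.513 and 0.191 FPKM. Hist1h2bc and Hist2h2be had no promoter window and are in neither set. The part of the octamer in these levels was not tested.

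In summed FPKM, histone genes outside the clusters exceeded the clustered genes in H2A and H3. Neither selection for poly(A) tails nor the assignment of shared reads was given in the sources used here. Their part in the shares below was not tested. H3f3a, H3f3b and the centromeric Cenpa summed to 725.1 FPKM in p16 cells and 1112 FPKM in GFP cells. The clustered H3 genes were thus 0.961% of H3 FPKM in p16 cells and 0.502% in GFP cells. H3f3b stood at 454.6 FPKM in p16 cells and 737.0 FPKM in GFP cells (q = 0.146 in the authors' deposited table). H3f3a stood at 269.6 FPKM in p16 cells and 373.0 FPKM in GFP cells (q = 0.390 in the authors' deposited table). The 7 H2A genes outside the clusters summed to 333.3 FPKM in p16 cells and 382.0 FPKM in GFP cells, and clustered genes made up 11.4% of H2A in p16 cells and 8.80% in GFP cells. H1 was the exception, since its clustered genes made up 60.3% of H1 FPKM in p16 cells and 57.0% in GFP cells, with H1f0 and H1fx at 137.8 and 135.6 FPKM together. Of 11 tested genes outside the clusters, 5 were higher and 6 lower in p16 cells. None of the 11 (0) was called in the authors' deposited table, against 5.42% of all tested genes, and 3 (27.3%) had an unadjusted p-value below 0.05, against 17.2%.

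The genes that act on histone mRNA and protein were not called either. Of 17 genes for histone transcription and mRNA 3′ end processing, 16 were tested and 6 were higher and 10 lower in p16 cells, with a median log2 ratio of -0.24. None of the 16 (0) was called in the authors' deposited table, against 5.42% of all tested genes, and 2 (12.5%) had an unadjusted p-value below 0.05, against 17.2%. The most abundant were Ncbp2, a subunit of the cap-binding complex, at 31.7 FPKM in p16 cells and 42.8 FPKM in GFP cells, and the processing scaffold Sympk at 31.1 and 30.2 FPKM. Slbp, which encodes the protein that binds the stem-loop, was named for its role after its values were seen and stood at 13.5 FPKM in p16 cells and 20.7 FPKM in GFP cells (q = 0.228 in the authors' deposited table). All 21 genes for histone chaperones and deposition were tested, with 8 higher and 13 lower in p16 cells and a median log2 ratio of -0.23. None of the 21 (0) was called in the authors' deposited table, against 5.42% of all tested genes, and 5 (23.8%) had an unadjusted p-value below 0.05, against 17.2%. The most abundant were the chaperones Nap1l1, at 140.0 FPKM in p16 cells and 198.4 FPKM in GFP cells, and Npm1, at 127.1 and 166.2 FPKM.

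Markers of S phase, when most clustered histone genes are transcribed, and of mitosis were mostly lower in p16 cells. Of 20 tested, 18 had the lower value and 2 the higher one, with a median log2 ratio of -0.61, against -0.02 for all tested genes and 0.19 for the clustered histone genes. The authors called 4 of the 20 in their deposited table, all as lower, against a background of 5.42% called in either direction and 1.1% called as lower. Top2a, which untangles DNA, fell to 1.79 FPKM in p16 cells, against 4.43 FPKM in GFP cells (q = 0.00245 in the authors' deposited table). Ccnb1, a mitotic cyclin, fell to 0.716 FPKM in p16 cells, against 2.67 FPKM in GFP cells (q = 0.00597 in the authors' deposited table). Cdk1, its kinase, fell to 0.971 FPKM in p16 cells, against 2.55 FPKM in GFP cells (q = 0.0184 in the authors' deposited table). Rrm1, a subunit of the enzyme that makes deoxynucleotides, fell to 5.35 FPKM in p16 cells, against 9.70 FPKM in GFP cells (q = 0.0498 in the authors' deposited table). These medians are not adjusted for GC content. With the trend on GC content and length removed, that of the histone genes was -0.02, and that of the markers was not computed. The difference between these markers and the histone genes was not tested.

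**Figure D5:**
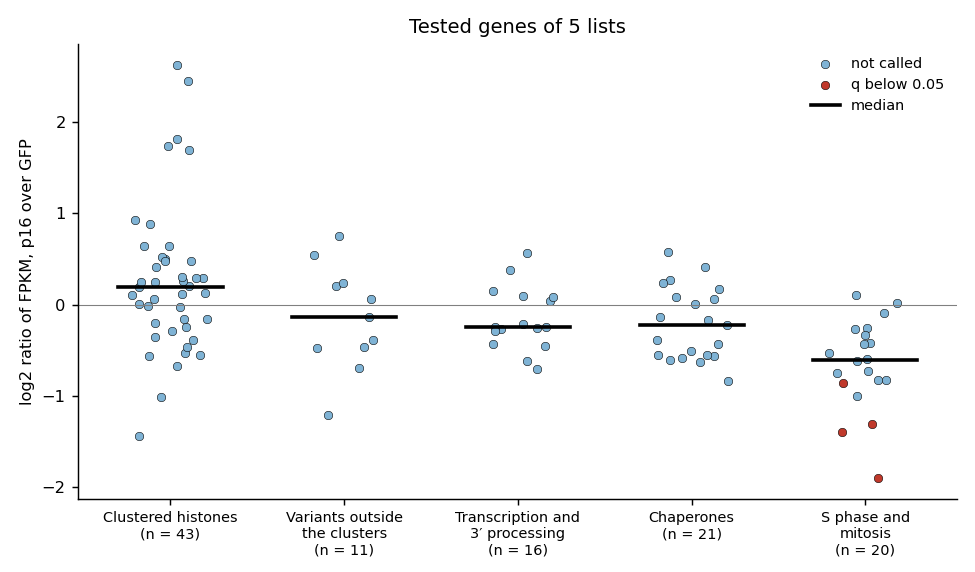
Log2 ratio of p16 over GFP FPKM for each tested gene of the clustered histones and of the 4 lists of related genes, in red where called, with the median of each list as a line and sideways spread added for display. The S phase and mitosis markers lie lowest, with a median of -0.61, and the clustered histone genes have a median of 0.19. The ratios are not adjusted for GC content.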

How the data were processed

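Per the labels, total RNA of FACS-isolated beta cells was sequenced in 3 p16 and 2 GFP samples. Per the submitters' processing notes, TopHat2, Cuffnorm and Cuffdiff were used with the mm9 build. The sources used here give no versions, annotation, strand handling or library depth. The deposited table holds, from the authors, 1 FPKM value per group and gene with their p-value and q-value, so those tests are described and none was rerun. FPKM is scaled by length and library size and is not a count.

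Log2 ratios of p16 over GFP FPKM were recomputed without a pseudocount. Genes listed at 0 in a group got no ratio. Starts were counted from 0 in the table, since the span of 48 of 67 members equalled the RefSeq length, and 1 was added. Stem-loops, coding 50-base stretches and GC content came from GENCODE M21 transcripts, and promoters from RefSeq on GRCm38.p6. No coordinates were converted. Symbols of 66 of 67 members matched RefSeq. Every member with a mean of at least 1 FPKM is named. Of each related list, the called genes are named, at most 4, or the 2 most abundant where none was called. The members and lists were chosen with earlier results of these data known. Alternatives covered pseudocounts, level filters, scaling, thresholds and left-out members, and the code was tested on simulated data. Python 3.11.15 was used with numpy 2.4.6, pandas 2.3.3, scipy 1.17.1, patsy 1.0.2 and matplotlib 3.10.9.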

Additional observations from a re-analysis of the deposited data

How the results depend on the processing

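No clustered histone gene was called at a q-value threshold of 0.01 or 0.1, nor with q-values recomputed over genes with a mean of at least 1 or 5 FPKM, where the lowest were 0.180 and 0.197. An unadjusted p-value below 0.05 in the authors' deposited table gave 3. The count of genes lower in p16 cells was 23 of 61 and became 10 of 33 at a mean of at least 1 FPKM and 31 of 61 after quantile normalization. Over the 43 tested genes it was 16, and 22 with the GC and length trend removed. So the majority of the 61 turned under quantile normalization, and that of the 43 with the trend removed. The median log2 ratio of 0.19 became 0.052 with a pseudocount of 5, 0.082 after quantile normalization and -0.021 with the GC and length trend removed. For the class sums, the log2 ratio of H1 was 0.22 and became 0.51 without Hist1h1c and 0.35 after quantile normalization. That of H2A was 0.22 and became 0.62 without Hist3h2a. That of H2B was 0.14 and became -0.015 without Hist1h2bc. That of H3 was 0.33, and became 0.22 over tested genes and -0.050 after quantile normalization. The H4 value moved by less than 0.1 under every alternative tried. With no replicate spread, 0.1 on the log2 scale served as the limit for a moved value. No paired analysis was possible because the table holds 1 value per group, and for the same reason no replicate could be left out. Hist1h4c changed sign when ratios were centred on the median of tested genes, alone among the 33 named genes. Depth per library is unknown, so values below 1 FPKM cannot be read closely.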
